A study of Mus musculus with 14 samples.

Results

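The genes described here are 9 genes of iron storage and transport, taken by symbol from the 55335 features measured: Fth1 and Ftl1 (storage), Tfrc, Trf, Slc11a1 and Slc11a2 (uptake) and Slc40a1, Cp and Heph (export). They were measured by droplet single-cell RNA sequencing (10x Genomics, 3′ chemistry) of whole spinal cords from mice at P115-120 (days after birth), a mid-disease stage of a mouse model of amyotrophic lateral sclerosis. The 14 libraries form 4 groups. The 3 SOD1G93A libraries are labelled with the strain B6SJL-Tg(SOD1*G93A)1Gur/J, which carries a transgene for mutant human SOD1. The 4 Clec7a-KO libraries are labelled B6.129S6-Clec7atm1Gdb/J, a targeted loss of Clec7a, the gene of a receptor of myeloid cells for fungal glucans. The 4 SOD1G93A/Clec7a-KO libraries carry both alterations and the 3 nTg libraries carry neither, but the labels give no background strain for these 2 groups. Cells came from all types present, and the labels do not say whether a library is 1 animal, so p-values measure the spread between these libraries. The study asks how Clec7a acts on microglia in this disease model, and the comparisons below are of libraries with and without the transgene, and with and without Clec7a.

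Iron is held in cells inside ferritin, a hollow shell of heavy chains (Fth1), which oxidise iron, and light chains (Ftl1), which help to deposit it. Transferrin (Trf) carries iron outside cells and enters through the transferrin receptor (Tfrc). Slc11a2 (DMT1) moves iron out of the endosome, and Slc11a1 (NRAMP1) moves it out of the phagosome of macrophages. Ferroportin (Slc40a1) is the exporter of iron from cells, and the copper enzymes ceruloplasmin (Cp) and hephaestin (Heph) oxidise the iron that leaves. In the nervous system, endothelial cells take iron in from blood, oligodendrocytes hold much of it, and microglia store what they ingest.

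Several of these transcripts carry an iron-responsive element, a hairpin that the iron regulatory proteins bind when iron is low. In a 5′ UTR this blocks translation, and in a 3′ UTR it protects the transcript from decay. The elements are shown because, among the genes with a match, they divide Tfrc, whose transcript level is known to be set by iron, from Fth1, Ftl1 and Slc40a1, whose translation is. The counts below measure transcripts only. The search took 28 bases with an unpaired C, 5 paired bases (G-T pairs allowed) and the loop CAGTGN, on the sense strand of coding transcripts, and found a match in 4 of the 9 genes. Of all 21877 genes with a coding transcript, 294 (1.34%) had a match. Each line runs 5′ to 3′ in GRCm38 and capitals mark the unpaired C and the loop.
Fth1 5′ UTR, chr19:9982733-9982760, plus strand: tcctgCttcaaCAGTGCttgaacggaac
Ftl1 5′ UTR, chr7:45459779-45459806, minus strand: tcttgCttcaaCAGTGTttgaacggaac
Slc40a1 5′ UTR, chr1:45925465-45925492, minus strand: aacttCagctaCAGTGTtagctaagttt
Tfrc 3′ UTR, chr16:32631220-32631247, plus strand: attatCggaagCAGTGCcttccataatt
Tfrc 3′ UTR, chr16:32631599-32631626, plus strand: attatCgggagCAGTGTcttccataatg
Tfrc 3′ UTR, chr16:32631664-32631691, plus strand: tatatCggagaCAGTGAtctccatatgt
Tfrc 3′ UTR, chr16:32631711-32631738, plus strand: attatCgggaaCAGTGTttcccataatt
Tfrc thus had 4 elements in 1 of its 3 coding transcripts, and the ferritin and ferroportin genes 1 each. Trf, Slc11a1, Slc11a2, Cp and Heph had no match to these letters in the transcripts searched. An element with an uneven stem or another loop would be missed, so this does not show that these genes lack one.

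The genes lie on 8 chromosomes of GRCm38: Fth1 at chr19:9980598-9985098, Ftl1 at chr7:45457944-45459884, Tfrc at chr16:32608920-32632794, Trf at chr9:103204001-103230444, Slc11a1 at chr1:74375195-74386062, Slc11a2 at chr15:100387898-100425072, Slc40a1 at chr1:45908068-45926523, Cp at chr3:19957054-20009145 and Heph at chrX:96455359-96574485. The ferritin genes have processed copies that could share reads with them. In microglia the copy Ftl1-ps1 held 0.262% to 1.75% as many UMIs (unique molecular identifiers, the counted transcript tags) as Ftl1, and each of Fth-ps2, Fth-ps3, Ftl1-ps2 and Ftl2-ps held under 0.03% of its parent in every library. Adding the copies moved the log2 fold change of Ftl1 in microglia between SOD1G93A and nTg from 1.15 to 1.14. How reads that match both were counted is not given in the sources used here.

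Of 108892 barcodes, 89225 cells were kept, and libraries held between 28819852 and 141204910 UMIs. Of 107376 distinct barcode sequences, 1504 (1.4%) occurred in more than 1 library. Cell types were rebuilt here from clusters, so a name such as microglia stands for microglia-like clusters and can differ from the names of the study. Microglia were 51575 of the cells, from 986 to 3723 in each library without the transgene and from 1836 to 7559 in each with it. They made up on average 39.3% of the cells without and 70.7% with the transgene. Clec7a itself stood at 808 to 905 CPM (counts of the gene per 1000000 UMIs of the class) in microglia of SOD1G93A, at 35.1 to 103 in nTg, and at 0.911 to 3.06 in both Clec7a-KO groups. Xist exceeded the Y-linked Ddx3y in 2 of 3 nTg, 1 of 4 Clec7a-KO, 0 of 3 SOD1G93A and 1 of 4 SOD1G93A/Clec7a-KO libraries, so sex was not balanced over the groups.

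The highest level of the 9 genes fell in 6 of the 9 classes large enough to be ordered. Among these 9, microglia and border-associated macrophages (macrophages of the meninges and vessels) had the highest ferritin, transferrin and Slc11a1, endothelial cells the highest Tfrc and Slc40a1, mural cells the highest Cp, astrocytes the highest Heph and ependymal cells the highest Slc11a2. Levels are given as mean CPM ± SD over libraries with at least 20 cells of the class, without (7 libraries) and with (7 libraries) the transgene. Classes next to each other in the order of mean log2(CPM + 1) were compared over libraries with a two-sided exact paired permutation test, and 33 of 72 such neighbours differed at an adjusted p under 0.05. The class with the highest level was the same for 9 of 9 genes when cells were weighted equally instead of by their UMIs.

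**Figure D1:**
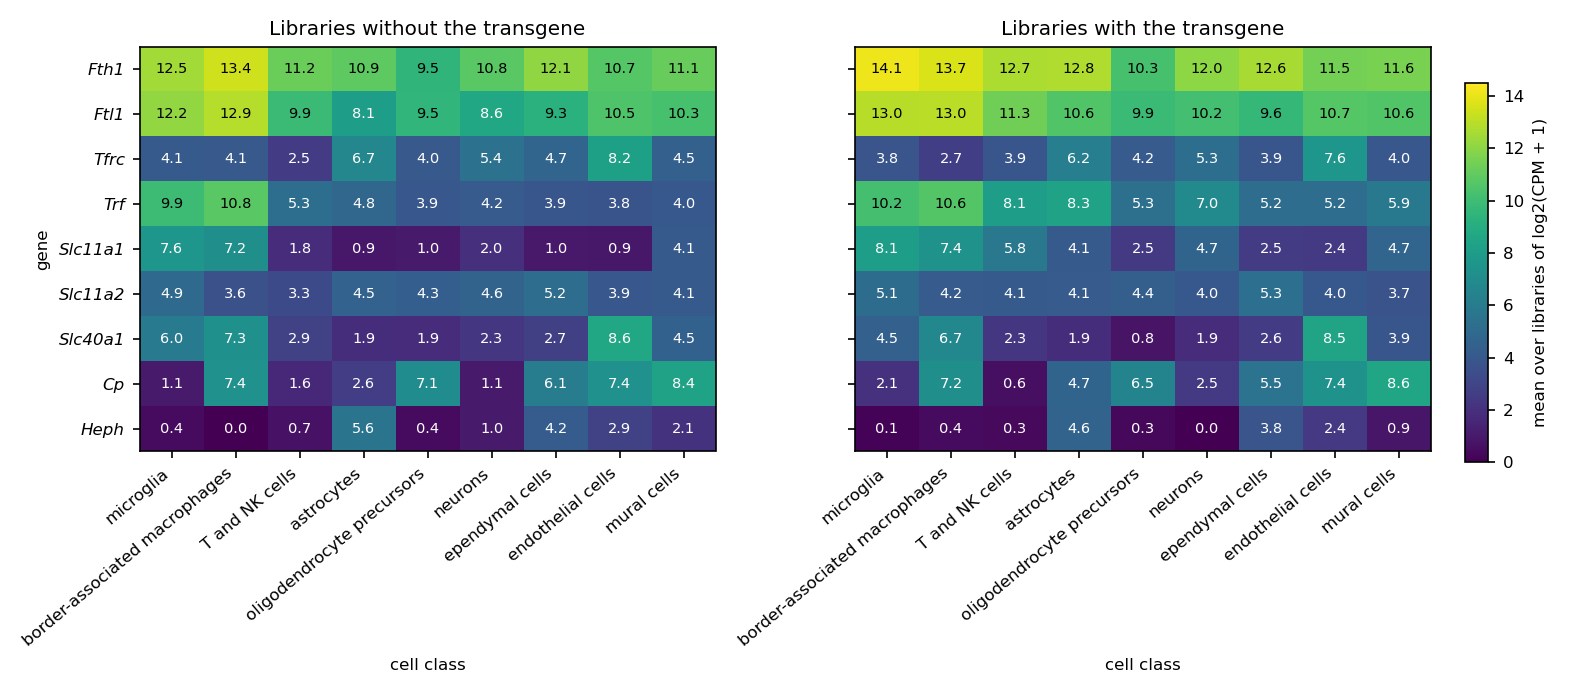
Mean over libraries of log2(CPM + 1) of the 9 genes (rows) in 9 cell classes (columns), for libraries without (left) and with (right) the SOD1G93A transgene. Fth1 is highest in border-associated macrophages on the left and in microglia on the right, and Slc40a1 of microglia is lower on the right than on the left.

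Fth1 averaged 5862.1 ± 832 CPM in microglia without the transgene and 17823.2 ± 2755.1 with it. In border-associated macrophages it averaged 11267.5 ± 2097.1 (4 libraries) and 13531.3 ± 2408.0. The order of these classes therefore differed with the transgene, and border-associated macrophages were higher in 4 of 11 libraries (adjusted exact permutation p = 0.875). Microglia markers, some of which macrophages share, stood in that class at 20.3% to 24.3% of their microglial level without and 31.3% to 47.9% with the transgene, and their part in its levels was not tested. Microglia exceeded ependymal cells, the next large class (4371.1 ± 530 and 6324.5 ± 1038.4 CPM), in 14 of 14 libraries (adjusted exact permutation p = 0.000977). Oligodendrocyte precursors were lowest, at 720.4 and 1256.6 CPM.

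Ftl1 followed the macrophage classes more narrowly. It averaged 4621.2 ± 503 CPM in microglia without and 8029.0 ± 1248.9 with the transgene, against 7726.1 ± 769 and 8406.8 ± 2633.2 in border-associated macrophages. Over libraries with and without the transgene together, the difference did not pass the test (0.30 on the log2 scale, adjusted exact permutation p = 0.0964). Border-associated macrophages were higher in 7 of 11 libraries, among them each of those without the transgene. Astrocytes without the transgene had the lowest mean, 276.3 ± 65.6 CPM, and oligodendrocyte precursors, ependymal cells and neurons lay between 406.2 and 742.7.

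Tfrc was a gene of endothelial cells, at 325.3 ± 125 CPM without and 198.8 ± 43.5 with the transgene. Endothelial cells exceeded astrocytes (105.4 ± 18.4 and 74.94 ± 20.4 CPM) in 14 of 14 libraries, by 1.47 on the log2 scale (adjusted exact permutation p = 0.000977). Astrocytes exceeded neurons by 1.12 and neurons exceeded ependymal cells by 0.90 (adjusted exact permutation p = 0.00126 for each). From ependymal cells downwards no neighbouring classes were separated, and microglia stood at 17.23 ± 5.04 and 13.55 ± 3.44 CPM.

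Among the 9 ordered classes, Trf was highest in the macrophage classes. Border-associated macrophages averaged 1796.6 ± 551 CPM without and 1629.3 ± 409 with the transgene, and microglia 983.9 ± 221 and 1248.6 ± 344. The former were higher in 11 of 11 libraries (0.55 on the log2 scale, adjusted exact permutation p = 0.0032). In the libraries without the transgene, every other class that was ordered averaged 70.41 CPM or less. With it, T and NK cells averaged 141 CPM in SOD1G93A and 544 in SOD1G93A/Clec7a-KO, where microglia markers stood at 8.8% to 13% and at 9.47% to 58.4% of their microglial level. At those shares the microglial profile would give 117 and 435 CPM. Astrocytes with the transgene are described below.

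Slc11a1 was highest in microglia, at 194.9 ± 13.1 CPM without and 278.1 ± 31 with the transgene, ahead of border-associated macrophages at 149 ± 24.3 and 174.4 ± 35.3 (0.58 on the log2 scale, adjusted exact permutation p = 0.0032). Mural cells followed at 16.99 ± 5.95 without the transgene, and astrocytes, oligodendrocyte precursors, ependymal and endothelial cells lay between 0.981 and 1.27. Slc11a2 was the most even of the 9 genes. It averaged 36.12 ± 4.86 CPM in ependymal cells and 29.64 ± 3.83 in microglia without the transgene, a difference of 0.23 on the log2 scale over all libraries that passed the test (adjusted exact permutation p = 0.00476, 12 of 14 libraries). From oligodendrocyte precursors downwards no neighbouring classes were separated, between 12.5 and 23.5 CPM.

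Slc40a1, the exporter, was highest in endothelial cells, at 397.1 ± 59.3 CPM without and 363.9 ± 96.9 with the transgene. Border-associated macrophages held 168 ± 70.1 and 114.1 ± 47.8, and microglia 63.06 ± 6.22 and 21.21 ± 3.56. Endothelial cells exceeded border-associated macrophages by 1.57 on the log2 scale and these exceeded microglia by 1.92, each in 11 of 11 libraries (adjusted exact permutation p = 0.0032 for each, the smallest unadjusted p for 11 libraries being 0.000977).

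Among the 9 ordered classes, Cp was led by mural cells, at 337.6 ± 90.3 CPM without and 397.4 ± 130 with the transgene. They exceeded endothelial cells (164.3 ± 23.1 and 167.1 ± 30.6) by 1.10 on the log2 scale in 14 of 14 libraries (adjusted exact permutation p = 0.000977). Border-associated macrophages, at 166.4 ± 38.8 and 154.3 ± 39.4, were not separated from endothelial cells, and oligodendrocyte precursors, at 133.1 ± 20.9 and 93.52 ± 22.1, exceeded ependymal cells by 0.99 (adjusted exact permutation p = 0.000977). Microglia held 1.108 ± 0.387 and 3.398 ± 1.59 CPM. The CPM of Heph was highest in astrocytes (47.87 ± 9.5 and 24.64 ± 6.41). They exceeded ependymal cells (18.33 ± 3.66 and 14.42 ± 5.08) in 14 of 14 libraries by 1.07 on the log2 scale (adjusted exact permutation p = 0.000977). Microglia held 0.3565 ± 0.136 and 0.09936 ± 0.062 CPM of Heph.

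Microglia held most of the UMIs of some of these genes over the cells recovered. Only 59 of the 89225 cells were named oligodendrocytes. The shares below are therefore of these cells and not of the whole cord. Without and with the transgene, microglia held 54.9% and 94.8% of the Fth1 UMIs of all cells, 94.3% and 98.1% of those of Trf and 97.4% and 98.9% of those of Slc11a1. They held only 5.69% and 38.1% of the Tfrc UMIs and 16% and 38.1% of those of Slc40a1, while endothelial cells held 55.4% and 38.4%, and 55.8% and 43.4%. Of the Heph UMIs, ependymal cells held 40.2% and 42.9%, above the 33.7% and 21% of astrocytes. The 3468 cells left unnamed, on average 5.59% of the cells without and 2.66% with the transgene, held 25.3% and 14.9% of the Tfrc UMIs, 26.1% and 16.7% of those of Slc40a1 and 31.1% and 28% of those of Cp. These cells are in none of the class orders above, which hold for named classes only.

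A few classes had too few cells for a library-level comparison and are given as pooled CPM with exact Poisson intervals, which cover counting error only. The 59 oligodendrocytes came from 10 libraries, with 22 cells from Clec7a-KO replicate 1 and 17 from nTg replicate 3. They had 22562.9 CPM of Fth1 (95% interval 21908.2 to 23232.3) and 4356.0 of Trf (4071.0 to 4655.7). The 98 fibroblasts had 1721.7 CPM of Cp (1605.7 to 1843.8) and 1696.4 of Trf. Neutrophils (117 cells) held 190 CPM of Slc40a1 (156 to 229), and B cells (48 cells) 68.7 of Tfrc (33 to 126). Clec7a-KO replicates 1 and 2 gave 30 and 53 of these neutrophils and 18 and 11 of these B cells. In monocytes (59 cells) Slc40a1 had no UMI (95% interval 0 to 6.62 CPM).

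The genes whose level ran most like each member across the 9 classes, by Pearson's r of mean log2(CPM + 1) among 12649 genes, are a description only, since the points share libraries and depth. For Fth1 they were Tep1 (0.978), Tgif1 (0.938) and Tmem37 (0.906), and for Ftl1 Cstb (0.989), Mapkapk2 (0.969) and Egr2 (0.969). For Tfrc they were Git1 (0.986), Tspan5 (0.976) and Adamtsl2 (0.967), and for Trf BC035044 (0.987), Cxcl16 (0.985) and Igsf6 (0.985). Slc11a1 ran with Plau (0.982), Pilra (0.971) and Tlr1 (0.969), and Slc11a2 with Cfap74 (0.939), Ergic3 (0.924) and Uhrf1bp1 (0.910). Slc40a1 ran with Adipor1 (0.972), Cd40 (0.966) and Map3k11 (0.965), Cp with Kdelr1 (0.925), Prpf3 (0.904) and Sh3bgrl (0.904), and Heph with Gja1 (0.985), Mt2 (0.960) and Tiam2 (0.960).

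In microglia, the libraries with the transgene had more of both ferritin chains, of Slc11a1 and of Cp, and less of the exporter Slc40a1, whether or not Clec7a was present. Fth1 was 3.93-fold higher in SOD1G93A than in nTg and 4.46-fold higher in SOD1G93A/Clec7a-KO than in Clec7a-KO. Slc40a1 was 2.05-fold and 2.21-fold lower. Tfrc did not pass the test in either comparison. In the labels, the SOD1G93A libraries have the running numbers 1, 5 and 6 and the nTg libraries 8, 9 and 12. Between these groups, library number and transgene cannot be told apart. Values of single genes by library below are CPM scaled with TMM factors. Values by microglia cluster, and levels set beside the level that microglial RNA would give, are plain CPM. Adjusted p-values are from edgeR's quasi-likelihood test over the 16592 genes tested in microglia. Heph was under the filter on low counts, which left 8 of the 9 genes tested.

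Between SOD1G93A and nTg, 5 of the 8 genes were higher and 1 was lower in microglia, where 18.5% of all genes tested were higher and 12.3% lower. Between SOD1G93A/Clec7a-KO and Clec7a-KO, 6 were higher and 1 was lower, where 25.1% of all genes were higher and 20.3% lower. The share of higher genes was thus above that of all genes in both comparisons, and no test of the set was made. The median log2 fold change of the 8 genes was 0.81 and 0.97, beside 0.00 and -0.00 for all genes tested.

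**Figure D2:**
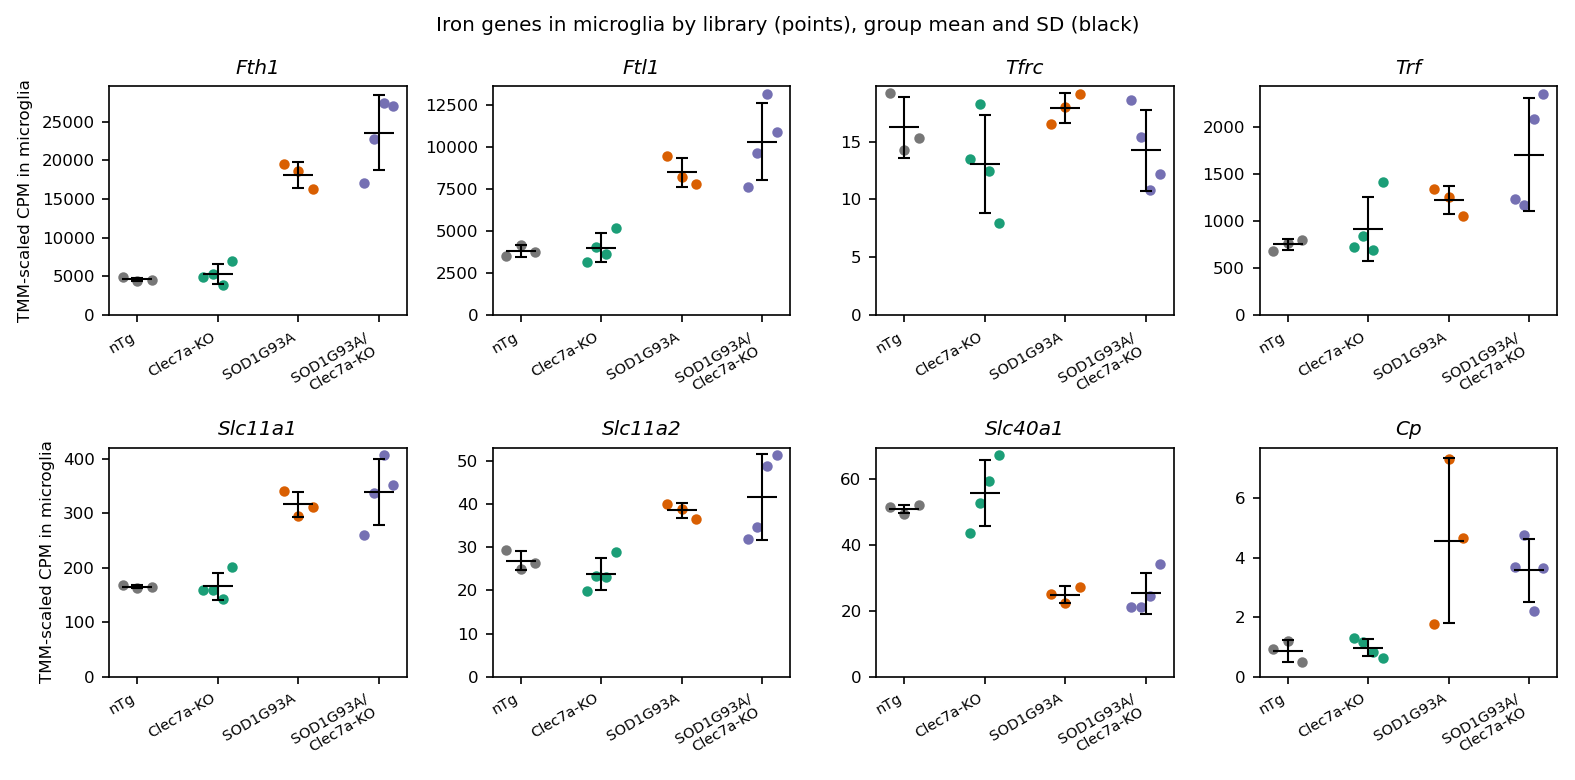
TMM-scaled CPM in microglia of the 8 genes tested, 1 point per library, with the group mean (bar) and SD (whisker) in black, for nTg, Clec7a-KO, SOD1G93A and SOD1G93A/Clec7a-KO. For Fth1, Ftl1, Slc11a1, Slc11a2, Slc40a1 and Cp the points of the libraries with the transgene do not overlap those without it. The share of all genes without overlap is not given here.

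Fth1 in microglia stood at 4885.4, 4454.5 and 4517.1 CPM in the 3 nTg libraries and at 19533.1, 18634.9 and 16263.6 in the 3 SOD1G93A libraries. It stood at 4876.3, 5322.6, 3920.7 and 7031.7 in Clec7a-KO and at 17105.0, 22797.5, 27436.8 and 27012.1 in SOD1G93A/Clec7a-KO. The lowest library with the transgene was above the highest without it. The log2 fold changes were 1.97 (SE 0.25, edgeR adjusted p = 5.44e-05) and 2.16 (SE 0.22, edgeR adjusted p = 3.85e-06).

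Ftl1 stood at 3514.9, 4205.5 and 3779.7 CPM in nTg and at 9490.4, 8216.6 and 7805.9 in SOD1G93A. It stood at 3171.5, 4064.3, 3632.3 and 5210.6 in Clec7a-KO and at 7631.7, 9651.8, 13155.8 and 10942.9 in SOD1G93A/Clec7a-KO. These groups did not overlap either. Ftl1 was 2.22-fold higher in SOD1G93A than in nTg (log2 1.15, SE 0.24, edgeR adjusted p = 0.00219) and 2.57-fold higher in SOD1G93A/Clec7a-KO than in Clec7a-KO (log2 1.36, SE 0.21, edgeR adjusted p = 0.000115).

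The fold change of the heavy chain was above that of the light chain in both comparisons. The log2 ratio of Fth1 to Ftl1 UMIs within a library, which does not depend on scaling, was 0.48, 0.08 and 0.26 in nTg, 0.62, 0.39, 0.11 and 0.43 in Clec7a-KO, 1.04, 1.18 and 1.06 in SOD1G93A and 1.16, 1.24, 1.06 and 1.30 in SOD1G93A/Clec7a-KO. Every library with the transgene was above every library without it. The ratio was 0.82 higher in SOD1G93A than in nTg (two-sided exact permutation p = 0.1, the smallest that 3 against 3 libraries can give, adjusted 0.2) and 0.80 higher in SOD1G93A/Clec7a-KO than in Clec7a-KO (exact permutation p = 0.0286, also the smallest, adjusted 0.114). It is read here only as a difference between libraries, since the yield of UMIs per transcript can differ between genes.

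Slc40a1 went the other way. It stood at 51.41, 49.5 and 51.95 CPM in nTg and at 25.19, 22.24 and 27.22 in SOD1G93A. It stood at 43.57, 52.63, 59.32 and 67.14 in Clec7a-KO and at 21.06, 21.13, 24.56 and 34.32 in SOD1G93A/Clec7a-KO. Each library without the transgene was above each with it, and the log2 fold changes were -1.03 (SE 0.19, edgeR adjusted p = 0.00108) and -1.14 (SE 0.17, edgeR adjusted p = 9.06e-05).

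Slc11a1 stood at 168.2, 163.5 and 164.7 CPM in nTg and at 341.6, 296 and 311.1 in SOD1G93A, and at 159.7, 159.7, 142.1 and 201.7 in Clec7a-KO against 260.9, 338, 407.6 and 352.8 in SOD1G93A/Clec7a-KO. It was 1.91-fold and 2.05-fold higher with the transgene (edgeR adjusted p = 0.000982 and 7.79e-05), without overlap. Slc11a2 was 1.44-fold and 1.75-fold higher (log2 0.52, edgeR adjusted p = 0.0452, and log2 0.81, adjusted p = 0.0011). The first call was lost in 14 of 26 alternative settings (DESeq2 adjusted p = 0.0563), and both were lost when libraries were scaled by their totals without TMM factors (log2 0.07, edgeR adjusted p = 0.719, and log2 0.30, adjusted p = 0.0768).

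Trf was higher with the transgene in the Clec7a-KO background (log2 0.89, SE 0.26, edgeR adjusted p = 0.0129), and the corresponding change between SOD1G93A and nTg did not pass the test (log2 0.70, 95% interval 0.11 to 1.29, edgeR adjusted p = 0.0935). It stood at 679.6, 767.5 and 801.2 CPM in nTg, at 1342.4, 1256.2 and 1053.7 in SOD1G93A, at 727.5, 837, 685.7 and 1415.1 in Clec7a-KO, and at 1228.3, 1163.0, 2077.8 and 2342.1 in SOD1G93A/Clec7a-KO. The first pair of groups did not overlap, and in the second Clec7a-KO replicate 4 lay above the 2 lower libraries with the transgene. That library has the number 16 in the labels, and SOD1G93A/Clec7a-KO replicates 3 and 4, the highest of their group, have 13 and 15. No SOD1G93A or nTg library has a number above 12, and every SOD1G93A number is below every nTg number. The call in the Clec7a-KO background was lost without SOD1G93A/Clec7a-KO replicate 3 (edgeR adjusted p = 0.0502) or replicate 4 (adjusted p = 0.0518), as it was without TMM factors (log2 0.40, adjusted p = 0.141) and with only the 2 groups in the fit (0.83, adjusted p = 0.0508). The SOD1G93A against nTg change passed in 4 alternatives: without Clec7a-KO replicate 4 (adjusted p = 0.0443), with the replicate number as a block (log2 0.71, adjusted p = 0.023), with only the 2 groups (0.69, adjusted p = 0.00788) and with the running library number of the labels as a covariate (1.11, adjusted p = 0.000789).

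Tfrc stood between 7.963 and 19.25 CPM in the 14 libraries. Its log2 fold change was 0.13 (95% interval -0.36 to 0.63, edgeR adjusted p = 0.72) between SOD1G93A and nTg and 0.12 (-0.31 to 0.55, adjusted p = 0.667) in the Clec7a-KO background. Cp, at 0.4803 to 1.291 CPM without and 1.76 to 7.333 with the transgene, was 5.14-fold and 3.53-fold higher (edgeR adjusted p = 0.00222 and 0.00268) at levels far under those of the vessel classes. Whether RNA from other cells took part in this was not tested.

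**Figure D3:**
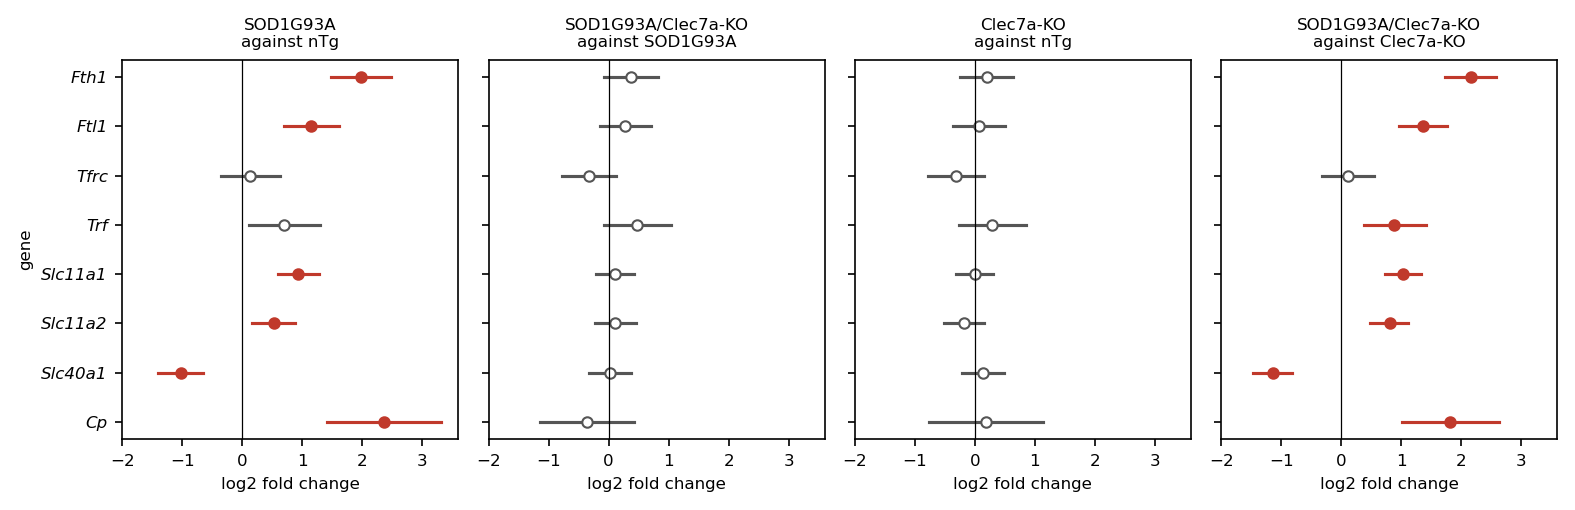
Log2 fold changes (points) and 95% intervals (lines) of 8 genes in microglia in the 4 comparisons, with filled red points for an edgeR adjusted p under 0.05 and open grey points otherwise. The transgene comparisons hold 6 and 7 red points and the Clec7a comparisons none.

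The scaling of libraries bears on these sizes. Without TMM factors, the median log2 fold change of all genes tested in microglia shifted to -0.445 and -0.508 in the transgene comparisons, and the split of calls shifted from 3064 higher and 2048 lower to 1395 and 5574 between SOD1G93A and nTg, and from 4165 and 3370 to 1860 and 7701 in the Clec7a-KO background. Fth1 was then 1.53 and 1.65 on the log2 scale, Ftl1 0.71 and 0.86, Slc11a1 0.49 and 0.53, Cp 1.89 and 1.31 and Slc40a1 -1.48 and -1.65, and these 5 genes kept their calls in each of 26 alternatives. Tfrc, not called, changed sign to -0.32 and -0.38.

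Other features of these microglia moved with the transgene too. A list of 22 immediate early and heat shock genes summed to 46513.9 to 63395.3 CPM without and 21310.2 to 27442.0 with it. The 8 markers of border-associated macrophages summed to 1.94 to 8.75 and 47.9 to 97.1, with Lyve1 at 0 in nTg and Cd163 at 0 in Clec7a-KO. Of these 8, Ms4a7 was also among the leading genes of microglia cluster 5 (6217 cells with and 18 without the transgene). The sum is thus not particular to macrophages. The 7 oligodendrocyte markers, a class rich in Fth1 and Trf, summed to 35.1 to 63.3 CPM without and 15.3 to 24.8 with the transgene. Cluster 4 of the microglia, led by the haemoglobin genes Hbb-bt and Hba-a2, held 1159 cells with and 1 without the transgene. The 6 erythroid markers summed over all microglia did not follow the transgene in the same way: they were highest in nTg replicate 3 (1514.3 CPM) and Clec7a-KO replicate 4 (659), and at 0.129 to 181 in the libraries with the transgene. Median UMIs per microglial cell were 5293.5 to 10715.0 without and 8783.0 to 21568.0 with it. The part of these in the differences above was not tested.

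No iron gene was called for Clec7a in microglia. Between SOD1G93A/Clec7a-KO and SOD1G93A, 0 of the 8 genes were called by edgeR, 0 had an unadjusted p under 0.05 and 0 were called by DESeq2, where 0.00603% of all genes were higher and 0.0121% lower. The differences, with these approximate intervals, were log2 0.38 for Fth1 (95% interval -0.07 to 0.83), 0.28 for Ftl1 (-0.15 to 0.71), 0.02 for Slc40a1 (-0.33 to 0.37), 0.48 for Trf (-0.07 to 1.04) and -0.32 for Tfrc (-0.78 to 0.13). Between Clec7a-KO and nTg, 0 of the 8 were called by edgeR and by DESeq2 and 0 had an unadjusted p under 0.05 (0.00603% of all genes higher and 0.0241% lower), with Fth1 at 0.20 (-0.25 to 0.64), Slc40a1 at 0.13 (-0.22 to 0.48) and Trf at 0.29 (-0.27 to 0.85). The difference of these differences was not called for any of the 8 genes (Fth1 0.18, 95% interval -0.44 to 0.81, edgeR adjusted p = 1). Each transgene comparison shares its groups with the Clec7a comparisons. Library numbers above 12 occur only in the groups without Clec7a, so the Clec7a comparisons also differ in the spread of library numbers. The log2 ratio of Fth1 to Ftl1 differed by 0.10 between SOD1G93A/Clec7a-KO and SOD1G93A (exact permutation p = 0.229, adjusted 0.305).

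Microglia with and without the transgene lay in different clusters, so the comparison above is between libraries whose cells seldom shared a cluster. Of the 14 microglia clusters, 0 had at least 20 cells in every library, the condition set for a group test within a cluster, and none was run. Clusters 0 to 5 did hold more than 20 cells in each of the 7 libraries with the transgene, so the Clec7a comparison within them was left untested. The smallest of the 14 (29 cells, all without the transgene) was named from its microglia markers, but its genes highest over other cells included the astrocyte genes Slc1a2 and Aldoc, so its name is doubtful. In cluster 0, Fth1 averaged 18155.2 ± 1286.0 CPM (SD, n = 3) in SOD1G93A and 19910.0 ± 4121.3 (n = 4) in SOD1G93A/Clec7a-KO. Clusters 12 (led by Crybb1 and P2ry12) and 20 (led by Xist and Tsix) held 9401 and 3865 cells without the transgene against 77 and 20 with it. Clusters 0 (Olr1, Ch25h), 2 (Apoe, Ptger4), 5 (Gpnmb, Atp6v0d2) and 3 (Tmem119, Ltc4s) held 10102, 9258, 6217 and 3793 cells with the transgene against 45, 51, 18 and 11 without.

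**Figure D4:**
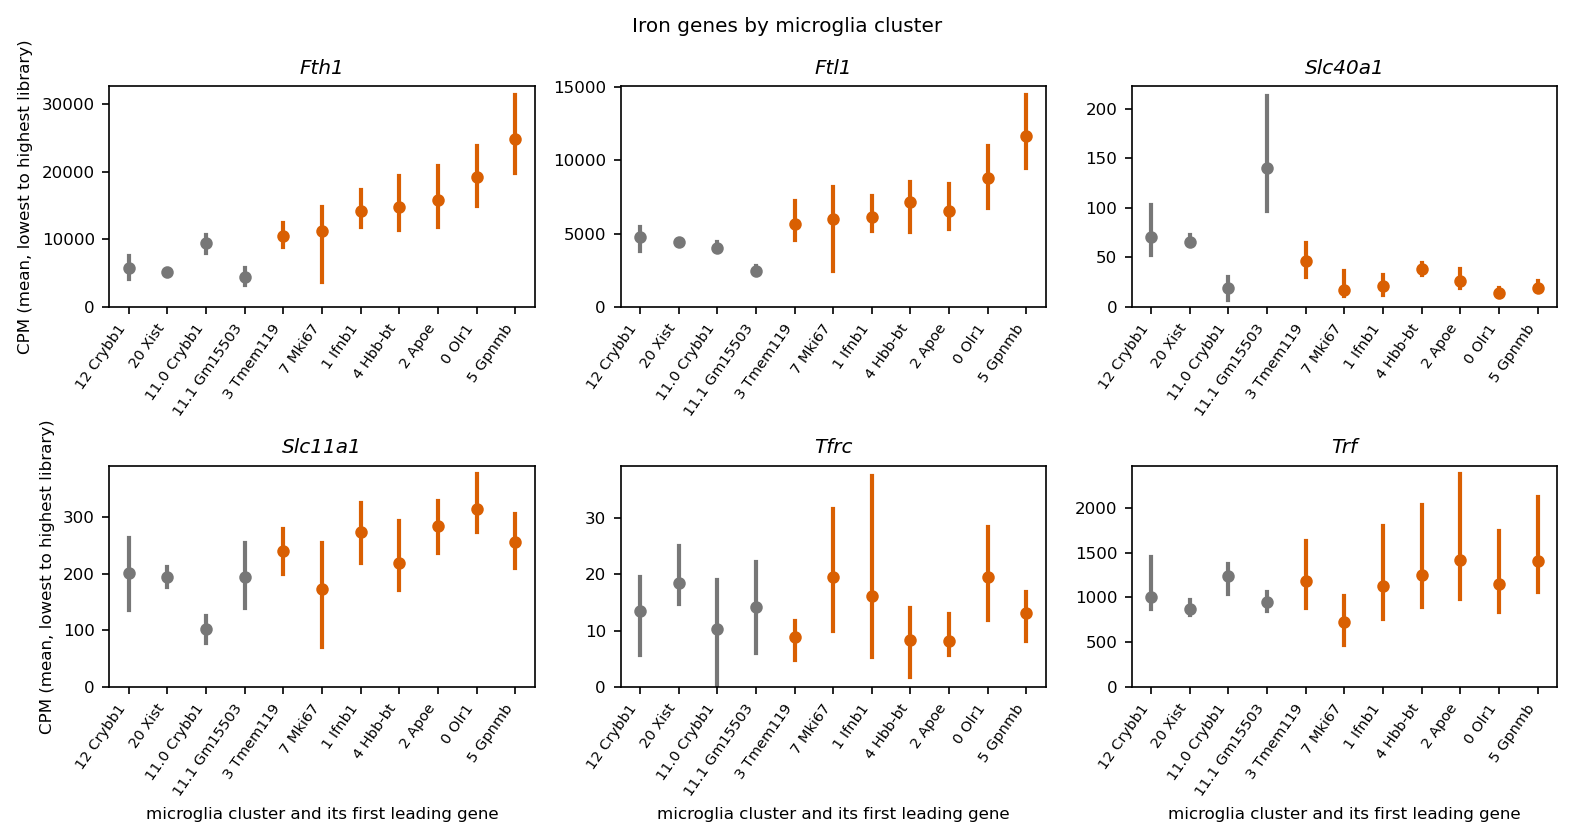
CPM without TMM factors of 6 genes by microglia cluster, with the mean over libraries (point) and the lowest to highest library (line). Clusters mostly of cells with the transgene are orange and those mostly of cells without it grey. Fth1 and Ftl1 are highest in cluster 5, and the mean Slc40a1 is lower in each orange cluster than in clusters 12, 20 and 11.1.

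Among the clusters with the transgene, those with more ferritin had less of the exporter than cluster 3. Fth1 averaged 24844.0 ± 4062.7 CPM (SD over 7 libraries) in cluster 5, whose leading genes Gpnmb and Atp6v0d2 belong to lysosomes, 19157.9 ± 3150.2 in cluster 0 and 10523.4 ± 1525.4 in cluster 3, which is led by the resting microglia marker Tmem119. In clusters 12 and 20, of libraries without the transgene, it averaged 5807.1 ± 1041.1 and 5132.2 ± 560. Within the 7 libraries with the transgene, cluster 5 exceeded cluster 3 in Fth1 by 1.10 to 1.33 on the log2 scale and in Ftl1 by 0.91 to 1.27, in 7 of 7 libraries. Slc40a1 was lower in cluster 5 than in cluster 3 in 7 of 7, by 1.24 on average (18.9 ± 3.57 against 46.5 ± 11.2 CPM). Cluster 0 had the least Slc40a1 of these (14.6 ± 3.42) and the most Slc11a1 (314 ± 37.6), and its Tfrc was above that of cluster 3 (19.5 against 8.87 ± 3.09 CPM). The clusters were built without the 9 genes, but from the same cells, so these values are a description.

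Between clusters 3 and 12 the ranges over libraries were apart for Fth1 and overlapped for Slc40a1, and no test was made. Fth1 of cluster 3 lay between 8886.1 and 12448.3 CPM, above the 4195.4 to 7520.0 of cluster 12 in every library. Slc40a1 of cluster 3 (30.21 to 65.12) overlapped that of cluster 12 (52.99 to 102.7). These are plain CPM, and the TMM factors of microglia ran from 0.774 to 0.931 with the transgene and from 1.037 to 1.244 without. Among the small clusters without the transgene, that led by Crybb1 and Lst1 (1094 cells) had 9513.2 ± 940 CPM of Fth1 with 19 ± 8.59 of Slc40a1. Cluster 11.1, led by Gm15503 and Maf (507 cells), had 4392.0 ± 858 with 140 ± 44.1. Both are sub-clusters of a cluster that was split because it was mixed or of low depth, and that also held the oligodendrocytes.

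Counted by cell, the exporter was detected in fewer microglia with the transgene. At 2000 UMIs per cell, a UMI of Slc40a1 was expected in 11.4% ± 0.336 (SD, n = 3) of nTg, 11.9% ± 1.47 (n = 4) of Clec7a-KO, 4.64% ± 0.692 (n = 3) of SOD1G93A and 4.24% ± 0.871 (n = 4) of SOD1G93A/Clec7a-KO microglia, and unthinned in 33.7%, 32.8%, 24.7% and 18.2%. For Slc11a1 the thinned shares were 31.7%, 30%, 41.4% and 40.9%. In oligodendrocyte precursors, which have little of either gene, the mean thinned shares were 0.324%, 0.593%, 0.121% and 0.275% for Slc40a1 and 0.183%, 0.233%, 0.854% and 0.928% for Slc11a1, in the same order of groups. Their median UMIs per cell were 4315.0 to 12493.0, and those of microglia are given above. Thinning left out 530, 512, 434 and 356 of 5773, 9504, 15446 and 20852 microglia.

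Of 57 further genes of iron handling, 41 were tested in microglia. Between SOD1G93A and nTg 12 were higher and 2 lower, where 18.5% of all genes were higher and 12.3% lower, and the median log2 fold change was 0.13 beside 0.00 for all genes. In the Clec7a-KO background 15 were higher and 7 lower, where 25.1% of all genes were higher and 20.3% lower (median 0.25 beside -0.00). The count of lower genes in the Clec7a-KO background was near the share of all genes, and no test of the list was made. Of the heme synthesis and breakdown genes tested, 5 of 15 were higher between SOD1G93A and nTg, and 8 were higher and 1 lower in the Clec7a-KO background. Of the genes of mitochondrial iron and iron-sulphur clusters, 4 of 12 were higher and 1 lower, and 4 and 2 in the Clec7a-KO background. No difference between these groups of genes was tested. Alas1, the first enzyme of heme synthesis, stood at 60 to 68.31 CPM in nTg and at 167.6 to 171.9 in SOD1G93A (log2 1.39, edgeR adjusted p = 0.000158), and Blvrb and Blvra, which reduce biliverdin, were higher by 1.20 and 1.08. The iron-sulphur cluster gene Hscb was higher by 1.27 between SOD1G93A and nTg, and the metalloreductase Steap3 and the metal importer Slc39a14 by 1.37 and 1.10.

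Mitoferrin 1 (Slc25a37), which brings iron into mitochondria, was lower, at 33.3 to 45.31 CPM in nTg and 20.26 to 23.9 in SOD1G93A (log2 -0.83, edgeR adjusted p = 0.00155), and lower by 1.13 on the log2 scale in the Clec7a-KO background. The siderophore binder Lcn2 was called lower (log2 -6.28, edgeR adjusted p = 0.0468), but nTg replicate 3 alone had 24.57 CPM, where the other 2 had 0.03275 and 0. Without that library the fold change was 2.14 (adjusted p = 0.729). The 7 neutrophil markers summed to 656 CPM in the microglia of nTg replicate 3, and under 1 in the other nTg libraries. In the Clec7a-KO background, the higher genes included Alas1 (1.61), Blvra (1.31), Hebp1 (1.29), Hscb (1.19), Slc48a1 (1.17), Blvrb (1.15), Alad (1.12), Steap3 (1.09), Glrx5 (1.00), Urod (0.81), Slc39a14 (0.79), Nfs1 (0.63) and Aco1 (0.43, but -0.07 without TMM factors).

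Lower in that background, besides Slc25a37, were among others the ferritinophagy receptor Ncoa4 (-0.56, edgeR adjusted p = 0.0453), Cpox (-0.52), Slc39a8 (-0.47), Hfe (-0.38) and Ireb2 (-0.33, adjusted p = 0.0273), which encodes an iron regulatory protein. Aco1 encodes the other iron regulatory protein. None of the 41 genes was called by edgeR between SOD1G93A/Clec7a-KO and SOD1G93A, where 0.00603% of all genes were higher and 0.0121% lower. Nor was any called between Clec7a-KO and nTg (0.00603% and 0.0241%). Of the 41, 6 and 1 had an unadjusted edgeR p under 0.05, and that share over all genes is not given here. Some of these calls were marginal: Ncoa4 lost its call in 11 of 25 alternatives and Ireb2 in 3. The list was chosen with results of these data known.

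In astrocytes, 5 of the 8 genes tested were higher and 2 lower between SOD1G93A and nTg, where 17.2% of all genes were higher and 16% lower, and 5 were higher and 1 lower in the Clec7a-KO background (17% and 15.1%). Astrocytes of these groups also lay in different clusters: cluster 21 held 273 to 1101 cells in each library without the transgene and 2 to 45 in each with it, and the sub-clusters of cluster 17 held most of the astrocytes with it. The higher genes were Fth1, Ftl1, Trf, Slc11a1 and Cp. Fth1 stood at 2114.4, 1650.5 and 1855.0 CPM in nTg and at 8778.3, 7357.6 and 6797.5 in SOD1G93A, a 4.08-fold difference without overlap (edgeR adjusted p = 3.15e-06). It stood at 2298.5, 1720.9, 1719.1 and 2211.2 in Clec7a-KO and at 6016.2, 9049.0, 5972.9 and 6640.4 in SOD1G93A/Clec7a-KO, a 3.48-fold difference (edgeR adjusted p = 2.23e-06). Ftl1 was 7.63-fold and 5.03-fold higher (edgeR adjusted p = 1.13e-05 and 2.14e-05).

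Trf in astrocytes stood at 22.79, 20.88 and 29.14 CPM in nTg and at 175.7, 603.5 and 330.4 in SOD1G93A, 15.2-fold higher (edgeR adjusted p = 8.1e-05). In Clec7a-KO it stood at 27.69, 10.77, 18.18 and 120.4 and in SOD1G93A/Clec7a-KO at 213.5, 477.7, 280 and 379.6, 8.34-fold higher (adjusted p = 0.000216). No library overlapped, although Clec7a-KO replicate 4 stood apart from its group. The 7 oligodendrocyte markers summed to 260 to 505 CPM in astrocytes without and 102 to 295 with the transgene.

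Microglial RNA was more abundant among astrocytes with the transgene. The 12 microglia markers stood at 0.745% to 1.41% of their microglial level in nTg, 0.982% to 2.18% in Clec7a-KO, 3.69% to 4.69% in SOD1G93A and 4.72% to 15.5% in SOD1G93A/Clec7a-KO astrocytes. At these shares the microglial profile would give 667 of the 7512.5 CPM of Fth1 in SOD1G93A and 2051.3 of 6861.4 in SOD1G93A/Clec7a-KO, and 44.9 of 361 and 144 of 335 CPM of Trf. For Ftl1 it would give 255.5 to 413.8 CPM in SOD1G93A libraries, where 1076.1 to 3111.7 were measured. In SOD1G93A/Clec7a-KO it would give 479.8 to 1232.6, where 1013.8 to 2258.0 were measured. In replicate 4 of that group (35 cells) it exceeded the measured Ftl1 (1204.9 against 1013.8), which left none there after removal. With that part removed, an alternative chosen after the data were seen, Fth1 was higher by 1.99 and 1.49 on the log2 scale (edgeR adjusted p = 3.34e-06 and 1.78e-05), Ftl1 by 3.04 and 1.60 (adjusted p = 0.00146 and 0.0331) and Trf by 4.52 and 3.16 (adjusted p = 0.000467 and 0.00399). Slc11a1, called 10.4-fold and 15.5-fold higher before, had 11.5 CPM measured beside 11.6 from microglia in SOD1G93A and 26.4 beside 29.3 in SOD1G93A/Clec7a-KO, and was left with too few UMIs to test.

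**Figure D5:**
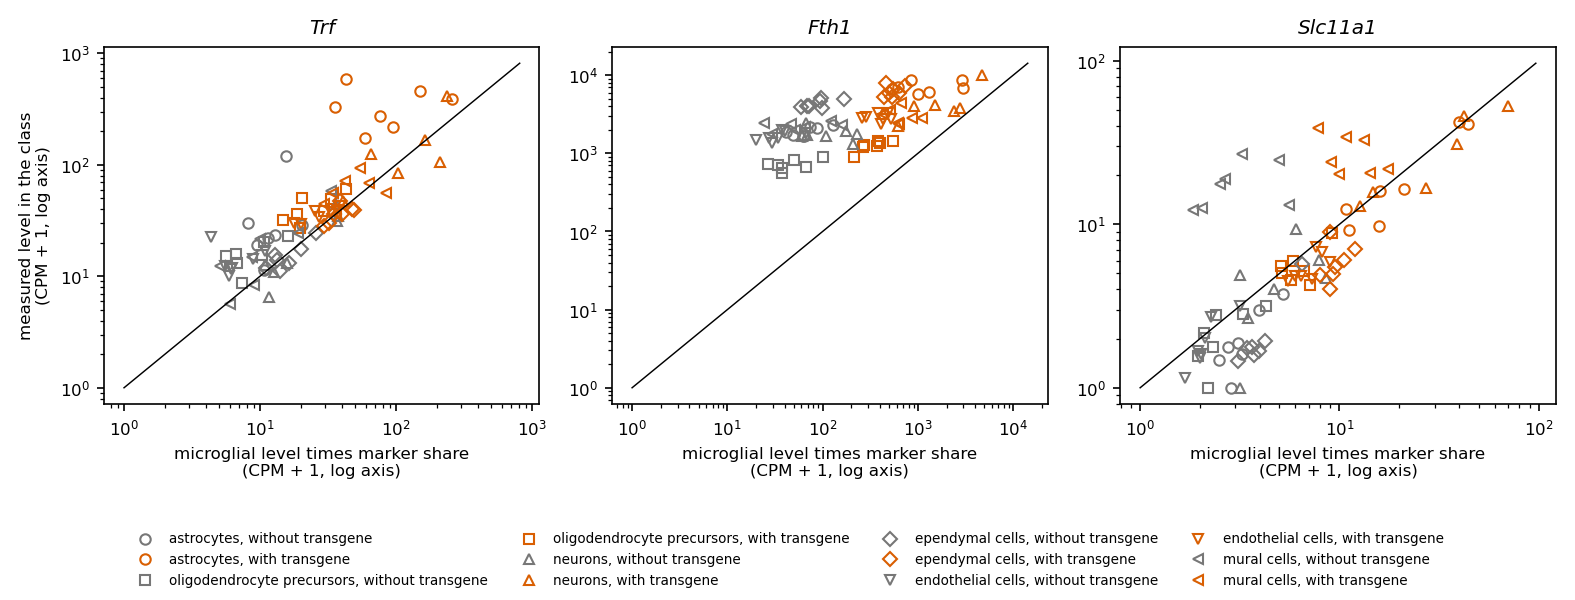
Measured CPM + 1 of Trf, Fth1 and Slc11a1 in 6 classes (vertical, log axis) against the level that the share of microglia markers in that class and library would give (horizontal, log axis), 1 point per class and library, orange with and grey without the transgene, with the line of equality. Fth1 lies above the line in all 6 classes, whereas Slc11a1 of every class but mural cells lies near or below it.

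The oxidase Heph went down in astrocytes. It stood at 47.3, 38.08 and 39.01 CPM in nTg and 35.83, 15.38 and 25.39 in SOD1G93A (log2 -0.72, edgeR adjusted p = 0.0212), and at 45.06, 66.68, 56.51 and 44.93 in Clec7a-KO and 22.14, 21.55, 27.1 and 26.64 in SOD1G93A/Clec7a-KO, 2.28-fold lower (adjusted p = 0.000676). The first call of this X-linked gene was lost in 4 of 26 alternatives: with sex as a covariate (-0.62, adjusted p = 0.116) and without SOD1G93A replicate 2 (-0.49, adjusted p = 0.127), SOD1G93A replicate 3 (-0.74, adjusted p = 0.0782) or nTg replicate 1 (-0.62, adjusted p = 0.0708), and the second with a mitochondrial limit of 5% (-1.28, adjusted p = 0.0924). Cp was 4.88-fold and 4.45-fold higher (edgeR adjusted p = 0.000412 and 0.000422), at 5.057 to 6.141 CPM in nTg and 17.34 to 39.81 in SOD1G93A. Tfrc was lower between SOD1G93A and nTg (log2 -0.67, adjusted p = 0.0342), a call lost in 6 of 26 alternatives: with sex as a covariate (-0.70, adjusted p = 0.0915), with a mitochondrial limit of 5% (adjusted p = 0.163), without SOD1G93A replicate 2 (-0.54, adjusted p = 0.141) or 3 (-0.51, adjusted p = 0.189) and without nTg replicate 1 (adjusted p = 0.0941) or 3 (adjusted p = 0.0697).

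In the other 5 classes tested, the calls were of Fth1, Ftl1, Slc11a1 and Trf. With the microglial part removed 0 of them passed edgeR's test, some with a fold change close to the first and some left with too few UMIs to test, and the part of microglial RNA in them is not settled by this. Endothelial, ependymal, precursor and mural cells too lay in different clusters with and without the transgene, and Clec7a-KO replicate 4 had 738 endothelial cells in cluster 24 and 748 ependymal cells in cluster 27, where the other libraries had at most 5 and 47. In ependymal cells 1 of 9 genes, Trf, was higher in each transgene comparison (0.787% and 0.944% of all genes were higher, 0.039% and 0.117% lower), by 1.38 and 1.44 on the log2 scale (edgeR adjusted p = 0.00749 and 0.00163). The first call was lost with sex as a covariate (1.15, adjusted p = 0.233), without SOD1G93A replicate 2 (adjusted p = 0.0922) and without nTg replicate 1 (adjusted p = 0.0584). Its mean of 30.5 CPM in SOD1G93A stood beside 31.3 from microglia, and of 12.5 in nTg beside 12.4. In endothelial cells 1 of 9, again Trf, was higher in the Clec7a-KO background (0.806% of all genes were higher and 0.0597% lower) by 1.60 (adjusted p = 0.00081), and by 0.01 (adjusted p = 0.999) with the microglial part removed. Between SOD1G93A and nTg 0 of 9 were called in endothelial cells by edgeR and 3 by DESeq2, and 5 had an unadjusted p under 0.05, where 0.455% of all genes were higher. Endothelial Fth1 stood at 2017.4, 1589.9 and 1458.8 CPM in nTg and at 3122.0, 2953.7 and 2947.4 in SOD1G93A, without overlap (log2 0.83, 95% interval 0.46 to 1.21, edgeR adjusted p = 0.0958).

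Tfrc, the receptor for which endothelial cells stand out, was listed there at 277.7, 498.8 and 336.2 CPM in nTg and at 258.9, 197.1 and 170.5 in SOD1G93A (log2 -0.83, 95% interval -1.51 to -0.15, edgeR adjusted p = 0.863). In Clec7a-KO it stood at 373.5, 253.3, 417.9 and 126.7 and in SOD1G93A/Clec7a-KO at 206.6, 167.8, 230 and 149 (log2 -0.63, 95% interval -1.23 to -0.04, adjusted p = 0.476). The first groups did not overlap, but neither difference passed the test over all genes. Slc40a1 of endothelial cells differed by -0.24 (-0.74 to 0.26) and -0.08 (-0.51 to 0.35), and whether this differed from the change in microglia was not tested.

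In oligodendrocyte precursors, 2 of 7 genes were higher in the Clec7a-KO background, where 3.76% of all genes were higher: Fth1 by 0.96 (edgeR adjusted p = 0.00377) and Trf by 1.68 (adjusted p = 0.00115). Between SOD1G93A and nTg 0 of 7 were called by edgeR and 2 by DESeq2, 3 had an unadjusted p under 0.05, and 1.06% of all genes were higher and 0.272% lower. With the microglial part removed, Fth1 and Trf in the Clec7a-KO background were higher by 0.54 (edgeR adjusted p = 0.0785) and 1.55 (adjusted p = 0.057). In neurons, 4 of 6 genes were higher in that background, where 0.666% of all genes were higher (Fth1 1.85, Ftl1 2.31, Slc11a1 2.92 and Trf 3.02 on the log2 scale, edgeR adjusted p = 0.018, 0.0216, 0.0332 and 0.0123), and 2 of 6, Trf and Slc11a1, between SOD1G93A and nTg (0.491% of all genes). The latter calls were lost in 7 of 24 alternatives for Trf and 16 of 24 for Slc11a1, in both cases without SOD1G93A replicate 2 (adjusted p = 0.132 and 0.206) and without any 1 of the nTg libraries (adjusted p = 0.104 to 0.171 for Trf). Without any 1 of the Clec7a-KO libraries, some of the 4 calls in that background were lost too (Trf adjusted p = 0.0501 without replicate 1 and 0.0553 without replicate 2, and Fth1 0.0724 without replicate 3 and 0.0561 without replicate 4). SOD1G93A/Clec7a-KO replicate 4 had too few neurons to enter. Microglia markers stood at 5.93% to 24.9% of their microglial level in neurons of SOD1G93A/Clec7a-KO and 1.12% to 4.42% in those of Clec7a-KO, and at 4.24% to 15.1% in SOD1G93A and 1.1% to 1.76% in nTg. With the library number as a covariate the calls of Trf and Slc11a1 between SOD1G93A and nTg (adjusted p = 0.0842 and 0.0713) and of Fth1 and Ftl1 in the Clec7a-KO background (0.0549 and 0.0632) were lost. Without SOD1G93A/Clec7a-KO replicate 2 none of the 4 was called (Fth1 1.14, adjusted p = 0.156, and Trf 2.10, adjusted p = 0.126), and with the microglial part removed Fth1 and Ftl1 were 1.24 and 1.52 higher on the log2 scale and not called (adjusted p = 0.704 and 0.754). Mural cells had 0 of 6 genes called by edgeR and by DESeq2 in the transgene comparisons (1 and 2 with an unadjusted p under 0.05), where 0.305% and 0.444% of all genes were higher and 0.0416% and 0.0694% lower.

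Over these 6 classes besides microglia, 45 pairs of gene and class were tested. Between SOD1G93A/Clec7a-KO and SOD1G93A, and between Clec7a-KO and nTg, 0 of the 45 were called by edgeR and 0 by DESeq2, and 6 and 1 had an unadjusted p under 0.05. Calls over all genes were as rare: in astrocytes 0.0159% were lower in the first of these comparisons, in ependymal cells 0.013% were higher and 0.026% lower in the first and 0.0195% lower in the second, and in oligodendrocyte precursors 0.00755% were higher in each and 0.00755% lower in the second. The difference of the Clec7a comparisons was called for 0 of the 45 by edgeR and by DESeq2, with 0 at an unadjusted p under 0.05, where 0.00651% of all genes in ependymal cells were lower.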

How the data were processed

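The authors deposited, for each library, a 10x matrix of UMI counts per gene and barcode, with normalization none. The submitters' processing notes name Cell Ranger, Seurat, DESeq2 and the build mm10 without versions, and the matrix headers give software version 3.0.2. The counting of reads that match several genes is not given in the sources used here.

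Barcodes with under 500 genes, under 1000 UMIs or over 15% mitochondrial UMIs were left out, then simulated-doublet neighbours at 0.8% per 1000 cells. Cells were clustered with scanpy 1.11.5 on 2000 variable genes without the 9 described, 30 components, 15 neighbours and resolution 1.0. Clusters were named from marker lists, and a limit of 5.0 (log2) on a second class and the splitting of mixed clusters were set after the data were seen. Counts were summed per library and class (at least 20 cells, 3 libraries a group). They were tested over all genes with edgeR 4.0.16's quasi-likelihood test on 4 groups (R 4.3.3, TMM factors, filterByExpr, Benjamini-Hochberg adjustment within a class and comparison, threshold 0.05). DESeq2 1.42.0 was an alternative. Code was tested on simulated counts. Class orders and the Fth1 to Ftl1 ratio used exact permutation tests.

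The microglial part of a class is the microglial CPM of the same library times the share of microglia markers in that class. Libraries held 28819852 to 141204910 UMIs, and intervals from pooled counts cover counting error only. The labels do not say whether replicate numbers pair the samples. Of 13 same-numbered pairs, 6 had correlated deviations above 0.1, which does not decide it. Genes named are the 9 members, of the iron list the 8 called genes with the largest fold change between SOD1G93A and nTg in microglia and every one called in another microglia comparison, the ferritin copies, and for each member the 3 genes most like it with at least 20 CPM in a class. The members and lists were chosen with earlier results of these data known. Some genes that this rule names are not reported here.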

Additional observations from a re-analysis of the deposited data

Results flagged for a closer look

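In 102 groups of 4 libraries checked for a library far from the other 3, 3 values stood apart by Dixon's criterion, and chance gives about 1 in 20 groups. In astrocytes, Trf stood at 120 CPM in Clec7a-KO replicate 4 and at 10.8 to 27.7 in the others. In ependymal cells, Slc11a1 stood at 4.87 CPM in Clec7a-KO replicate 1 and at 0.44 to 0.651 in the others. In mural cells, Ftl1 stood at 1898.8 CPM in Clec7a-KO replicate 4 and at 1245.9 to 1317.8 in the others. The cause was not tested. No difference between the transgene's effects with and without Clec7a was called for any gene tested in any class fitted (0). Not all of the 9 genes were tested in every class.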

How the results depend on the processing

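The counts of calls in this section are not set beside the share of all genes called under the same setting. They show only how the calls of these genes moved. In microglia, leaving out 1 library gave 5 to 7 calls between SOD1G93A and nTg (6 with all) and 6 to 7 in the Clec7a-KO background (7 with all), and 0 in both Clec7a comparisons. In the other classes, calls between SOD1G93A and nTg (10) were 16 by DESeq2, 18 without a low-count filter, 24 without doublet removal, 5 with sex as a covariate and 6 with microglial RNA removed, an alternative chosen after the data were seen. They ranged from 5 (without SOD1G93A replicate 2) to 12 with a library left out, and were 6 without nTg replicate 1. In the Clec7a-KO background (14) they were 28 without doublet removal, 5 with microglial RNA removed and 10 to 16 with a library left out. Without a low-count filter 1 call arose between SOD1G93A/Clec7a-KO and SOD1G93A and 1 between Clec7a-KO and nTg (0 with it). Without TMM factors Aco1 in microglia reversed to -0.02 and -0.07, and Lcn2 (-6.89 to 2.14 with a library left out) reversed to 2.14 without nTg replicate 3, the library with nearly all its nTg UMIs. The cause of the other shifts was not tested. Of the iron list's calls in microglia, 45 of 502 values with a library left out and 21 of 393 under other settings lost the threshold. The list's count of calls ran from 11 to 19 between SOD1G93A and nTg (14) and from 18 to 26 in the Clec7a-KO background (22).

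With the replicate number as a block, calls in microglia were 7 between SOD1G93A and nTg and 7 in the Clec7a-KO background, and 14 and 19 in the other classes. The correlations of same-numbered libraries ran from -0.27 to 0.51. They do not decide whether replicates were paired, and the labels do not say, so the block stayed an alternative. For the 8 genes tested in microglia, 434 of 448 values with a library left out and 375 of 384 under other settings kept their side of the threshold. Among these, 17 and 25 that were not called changed sign. The values include the Clec7a comparisons, where nothing was called, and libraries left out that were not in the comparison, so many could hardly move. The Slc11a2 call between SOD1G93A and nTg was lost in 14 of 26 alternatives. Depth limits Cp and Heph in microglia, where few UMIs were counted.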
